A study of Mus musculus with 9 samples.

Results

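The natriuretic peptide genes Nppa, Nppb and Nppc, their receptor genes Npr1, Npr2 and Npr3, the protease gene Corin and the peptide gene Adm are described here in mouse embryonic tissue, the posterior second heart field (pSHF). The 8 genes were chosen by symbol with earlier results of these data known. Each had a row among the 27198 rows of the authors' deposited full table. Polyadenylated RNA was sequenced from microdissected pSHF at E10.5, with 5 libraries labelled Shh KO and 4 labelled Shh WT, all from a mixed strain background. Shh encodes the secreted ligand Sonic hedgehog. The labels give neither the kind of Shh allele nor whether embryos were pooled, and they name no separate embryos behind the libraries, so the p-values cover only the spread among these libraries, which may be technical. The study examines Hedgehog-dependent networks of heart and neural progenitors, and the 2 genotypes are compared to find transcripts that respond to loss of Shh.

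Natriuretic peptides are hormones with a ring closed by a disulfide bond. The gene Nppa encodes atrial natriuretic peptide, Nppb brain natriuretic peptide and Nppc C-type natriuretic peptide. Heart muscle makes the products of Nppa and Nppb, and in the embryo Nppa marks the working muscle of the forming atria and ventricles. Corin is a membrane serine protease that cuts the Nppa precursor. Npr1 and Npr2 are receptors that make cyclic GMP when they bind peptide, whereas Npr3 lacks that enzyme activity and takes peptides out of circulation. Adm encodes adrenomedullin, a vasodilator peptide that acts through Calcrl together with Ramp2 or Ramp3.

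The label was checked on the Shh row and on tissue markers. In the authors' deposited table the Shh row had 5.44 FPKM (fragments per length of transcript and size of library, 1 pooled value per genotype) in Shh KO and 15.7 FPKM in Shh WT, and Ptch1, a receptor gene that the pathway induces, had 11.6 FPKM in Shh KO and 33.8 FPKM in Shh WT. All 10 second heart field markers listed for this check, among them Isl1, Tbx5 and Hoxb1, were tested by Cuffdiff, the authors' test of the 2 genotypes, and 2 were called lower at its q-value under 0.05. These were Osr1, with 33.5 FPKM in Shh KO and 71.4 FPKM in Shh WT, and Foxf1, with 42.5 FPKM in Shh KO and 83.5 FPKM in Shh WT, in the authors' deposited table. The depth of each library is unknown.

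Over all 28 pairs of the 8 genes, the longest run that protein-coding transcripts of a pair shared was 18 bases, in Npr1 and Npr2. The reads were 50 bases long, so a read that lies wholly in a transcript of 1 of these genes could not match another of them exactly.

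The promoters of Nppa and Adm are shown because these were the members called by the authors' test. Each line holds the 250 bases before the start of the RefSeq gene (GRCm38.p6), 5′ to 3′ on the strand of the gene, and capitals mark motif matches on either strand. The positions are chr4:148000472-148000721 on the plus strand for Nppa and chr7:110627407-110627656 on the plus strand for Adm.
Nppa: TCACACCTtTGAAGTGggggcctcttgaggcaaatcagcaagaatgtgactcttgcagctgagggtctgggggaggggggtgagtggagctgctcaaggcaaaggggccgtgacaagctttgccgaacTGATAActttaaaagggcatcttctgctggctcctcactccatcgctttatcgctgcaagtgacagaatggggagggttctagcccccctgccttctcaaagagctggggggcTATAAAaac
Adm: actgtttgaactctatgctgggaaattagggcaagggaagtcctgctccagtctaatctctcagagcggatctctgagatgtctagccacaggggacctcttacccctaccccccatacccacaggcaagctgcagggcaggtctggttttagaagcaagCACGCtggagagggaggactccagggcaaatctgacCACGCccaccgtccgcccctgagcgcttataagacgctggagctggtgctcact

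The words searched on both strands were TCACACCT for T-box factors, TNAAGTG for NKX2-5, AGATAA or TGATAA for GATA factors, CATTCC for TEAD factors (the M-CAT element), TATAAA, GACCACCCA for GLI factors, and ACGTG or GCGTG for hypoxia-inducible factors. These words were chosen from knowledge of such promoters, that of Nppa included, so their presence there is a description. The Nppa window held a T-box word at its far end, 250 bases before the RefSeq start, and an NKX2-5 word that began 241 bases before it. A GATA word followed 122 bases before the start. A T-box word was present in 1.12% of 32536 distinct windows of the same length, each before a start in the RefSeq promoter table, an NKX2-5 word in 3258 of them, a GATA word in 16.5% and TATAAA in 12.3%. The next count rests on words chosen with the Nppa promoter known. It also rests on the window length, since a shorter window would lose the T-box word of Nppa. All 4 words together were present in 1 window, which is that of Nppa. Its TATAAA began 9 bases before the RefSeq start and 33 bases before the start of the Nppa row in the authors' deposited table.

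The promoter table places the Nppb window before a later start, so that 114 of its 250 bases lie inside the RefSeq gene, and it is not shown. Its words all began after the start of the Nppb row in the authors' deposited table, with an M-CAT word 6 bases after it, GATA words 16 and 27 bases after it and TATAAA 80 bases after it. At least 2 GATA words were found in 2.62% of windows, and an M-CAT word in 12.6%. The Adm window held 2 hypoxia response words, 90 and 54 bases before the start, and 2 or more such words were found in 16.8% of windows. The GLI word was found in none of the windows of the 8 genes, 4 of which lie at least partly inside the RefSeq gene, and in 0.218% of all windows. No match says only that these letters are not in the window.

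Nppa and Adm were higher in Shh KO than in Shh WT pSHF, and no member was called lower by the authors' Cuffdiff test at a q under 0.05. In the authors' deposited table, Nppa had 65.9 FPKM in Shh KO and 8.55 FPKM in Shh WT, and Adm had 10.6 FPKM in Shh KO and 5.16 FPKM in Shh WT. With 1 pooled value per genotype, no SD over libraries can be given. The 2 members called are 2 of the 7 that Cuffdiff tested, while 1.56% of all 13048 named and tested rows with a numeric fold change were called higher and 0.383% lower. Nppc was not tested. The median log2 fold change of the 7 tested members was 0.74 in the authors' deposited table, and that of all named tested rows was 0.02.

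**Figure D1:**
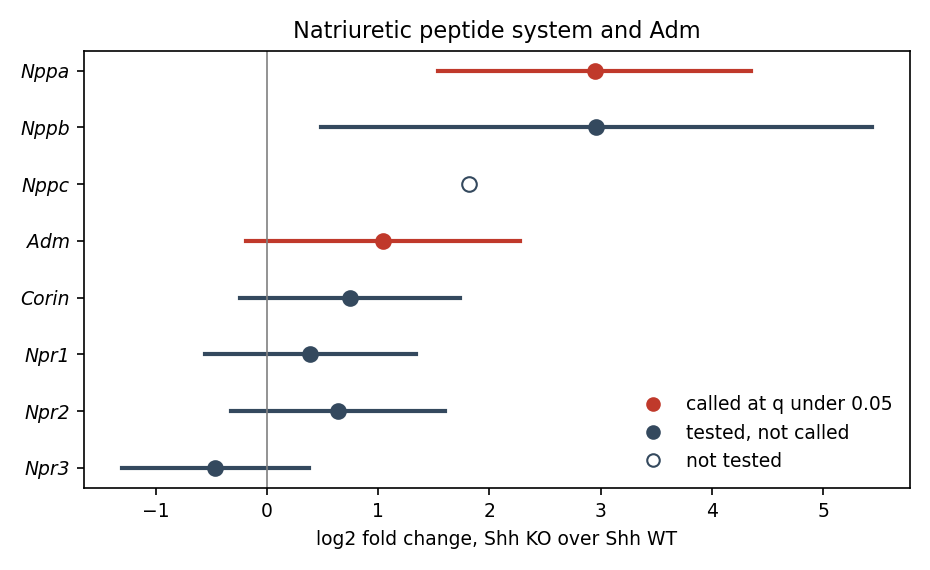
Log2 fold change of each of the 8 genes, Shh KO over Shh WT, as deposited; bars span 1.96 approximate standard errors on each side. Nppa and Nppb sit near 3, Adm near 1, and Npr3 is the only tested gene below 0.

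Among the ligand genes, Nppa (chromosome 4, 148000746 to 148002067, GRCm38) was the called gene with the lower p. The authors' deposited table gives a log2 fold change of 2.95 for it, a level 7.71-fold higher in Shh KO (Cuffdiff p = 5e-05, the smallest p in the table, q = 0.00554). That p was shared by 149 named called rows, Nppa included. An approximate standard error of 0.72 was obtained by dividing the fold change by the deposited test statistic. Nppa ranked 7 of the 203 called rises by fold change. Among the 253 genes of the shorter deposited table, Nppa ranked 28 by pooled FPKM in Shh KO and 88 in Shh WT.

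Nppb (chromosome 4, 147985789 to 147987205) had nearly the same fold change as Nppa but was not called. The authors' deposited table puts it at 2.96 on the log2 scale, with an approximate standard error of 1.27 (Cuffdiff p = 0.00255, q = 0.11). That error was larger than for 94.3% of named tested rows, against 81.0% for Nppa. A total of 22 named tested rows had a larger fold change than Nppb in the authors' deposited table, and 16 of those 22 were not called either. No FPKM value for Nppb was used here, since the shorter table lists called genes.

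**Figure D2:**
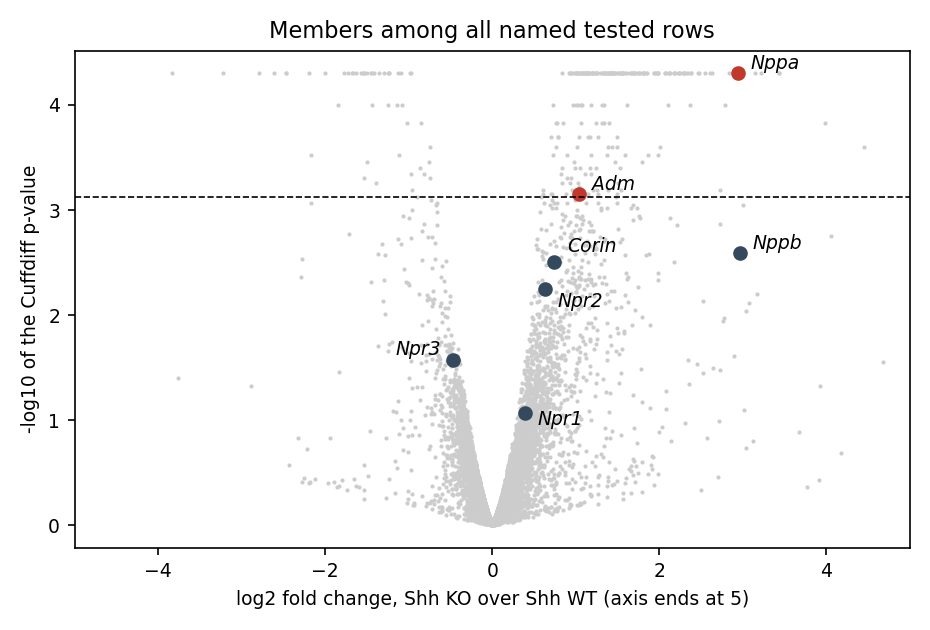
Log2 fold change of Shh KO over Shh WT against −log10 of the Cuffdiff p-value for named tested rows (grey; 2 rows fall beyond the axis ends at 5), with the 7 tested members marked, red where called. The dashed line is the largest p among called rows; Nppa lies on the row of the smallest p, Adm just above the line, and Nppb, with the fold change of Nppa, below it.

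Nppc (chromosome 1, 86666293 to 86670573) stands at 1.81 on the log2 scale of the authors' deposited table, but its p-value of 1 marks a row that was not tested. No direction is drawn from it. Adm (chromosome 7, 110627669 to 110629819), the remaining ligand gene, rose 2.06-fold in Shh KO, which is 1.04 log2 units in the authors' deposited table (approximate SE 0.63, Cuffdiff p = 0.0007, q = 0.0454). The interval that this error gives, −0.19 to 2.28, includes 0, since the deposited statistic of Adm carries a wider error than its deposited p-value. The call stood close to the limit, since the largest p among called rows was 0.00075, and 6 named called rows had a larger p than Adm. At a q under 0.01, Nppa was the 1 member called.

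The protease and receptor genes gave no call. Corin (chromosome 5, 72300007 to 72504540) stood at 0.74 log2 units, Shh KO over Shh WT, in the authors' deposited table (approximate SE 0.51, Cuffdiff p = 0.00315, q = 0.127). The receptor gene Npr2 (chromosome 4, 43631611 to 43651240), whose product binds C-type natriuretic peptide, stood at 0.64 in the authors' deposited table (approximate SE 0.49, Cuffdiff p = 0.0056, q = 0.194). Npr1 (chromosome 3, 90450592 to 90465866), the receptor gene for the products of Nppa and Nppb, stood at 0.39 in the authors' deposited table (approximate SE 0.48, Cuffdiff p = 0.0851, q = 0.913). The clearance receptor gene Npr3 (chromosome 15, 11839897 to 11905674) was the tested member with a negative log2 fold change, at −0.46 in the authors' deposited table (approximate SE 0.43, Cuffdiff p = 0.0266, q = 0.538). The log2 fold changes of Npr1 and Npr3 thus differed by 0.85, and that difference has no test here, as no per-library values were used.

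At an unadjusted Cuffdiff p under 0.05, 5 of the 7 tested members had a positive fold change and 1 had a negative one, beside 5.83% and 1.68% of all named tested rows. The 5 were Nppa, Nppb, Adm, Corin and Npr2, and the 1 was Npr3. A positive fold change was found for 6 of the 7, and for 54.9% of all named tested rows. None of the 8 rows overlapped another row of the table.

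None of the other named genes near Nppa and Nppb was called. Nppb ends 13.5 kb before Nppa starts, and the chloride transporter gene Clcn6 starts 2.06 kb after Nppa ends. In the authors' deposited table, the log2 fold change was 0.05 for Clcn6 (Cuffdiff p = 0.807) and 0.09 for 2510039O18Rik, the tested gene on the side of Nppb (Cuffdiff p = 0.656). The 16 other named tested rows within 200 kb of Nppa had log2 fold changes between −0.68 and 0.57 in the authors' deposited table, and Cuffdiff called 0 of them at a q under 0.05. At an unadjusted p under 0.05 there was 1, Draxin, at 0.57 in the authors' deposited table (p = 0.00735), chosen for its position after its value was seen. Plod1, a collagen lysyl hydroxylase gene, stood at 0.31 and Fbxo2 at 0.39 in the authors' deposited table.

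**Figure D3:**
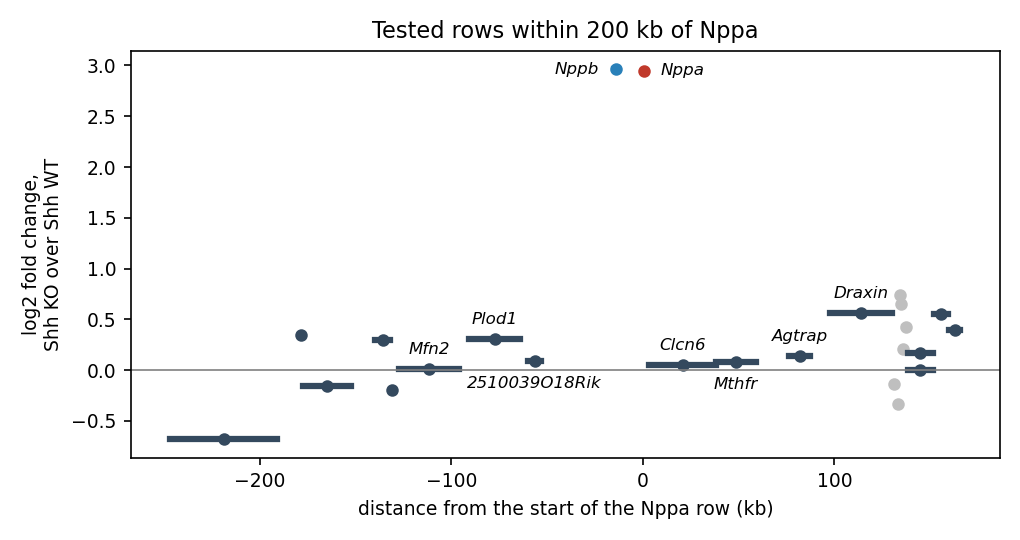
Log2 fold change of Shh KO over Shh WT for tested rows within 200 kb of Nppa, against distance from the start of the Nppa row in kb; bars span each row and grey points are rows without a gene name. Nppb and Nppa stand near 3, while all other named rows lie between −0.68 and 0.57.

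The fold change of Nppa was larger than that of each heart muscle gene listed beside it, a difference that has no test here. Of 15 other chamber myocardium genes, all tested, 9 were called higher and 0 lower, and their log2 fold changes had a median of 1.06 in the authors' deposited table. The range was −0.15 for Gja5 to 2.07 for Myl3, so Nppa at 2.95 lay above all 15. In the authors' deposited table the pooled FPKM of Myl7, Myl4, Tnnt2 and Actc1, genes of the atrial light chains, cardiac troponin T and cardiac actin, summed to 2370 in Shh KO and 1050 in Shh WT, a ratio of 2.26. The Nppa value was 2.78% of that sum in Shh KO and 0.815% in Shh WT, a ratio of 3.41. For Myl7, Myl4, Tnnt2 and Actc1 taken singly, the ratio of Nppa to the muscle gene was between 3.02 (Myl4) and 3.89 (Actc1) times as large in Shh KO. These muscle genes rose between 1.98-fold (Actc1) and 2.55-fold (Myl4). Of the other called sarcomere genes, Myl3 (4.19-fold), Myl2 (3.90-fold) and Tnni3 (2.83-fold) rose more, and Actn2 (2.50-fold) lay within that span. Relative to Myl3, Myl2 and Tnni3, the rise of Nppa was therefore smaller than the ratios given. All such ratios come from 1 pooled value per genotype and have no test. In such tissue, more muscle cells and more RNA per muscle cell cannot be told apart.

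Another called chamber gene was Cited1, a transcriptional co-regulator gene, with 50.5 FPKM in Shh KO and 18.5 FPKM in Shh WT in the authors' deposited table. The called sarcomere genes Myl2 (1.96), Myl3, Tnni3 (1.50), Myl4 (1.35), Actn2 (1.32), Myl7 (1.19), Tnnt2 (1.06) and Actc1 (0.99) had these log2 fold changes in the authors' deposited table. Smpx (0.42), Bmp10 (0.46), Hcn4 (0.06), Sln (0.08) and Gja1 (−0.03) had no call in the authors' deposited table.

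**Figure D4:**
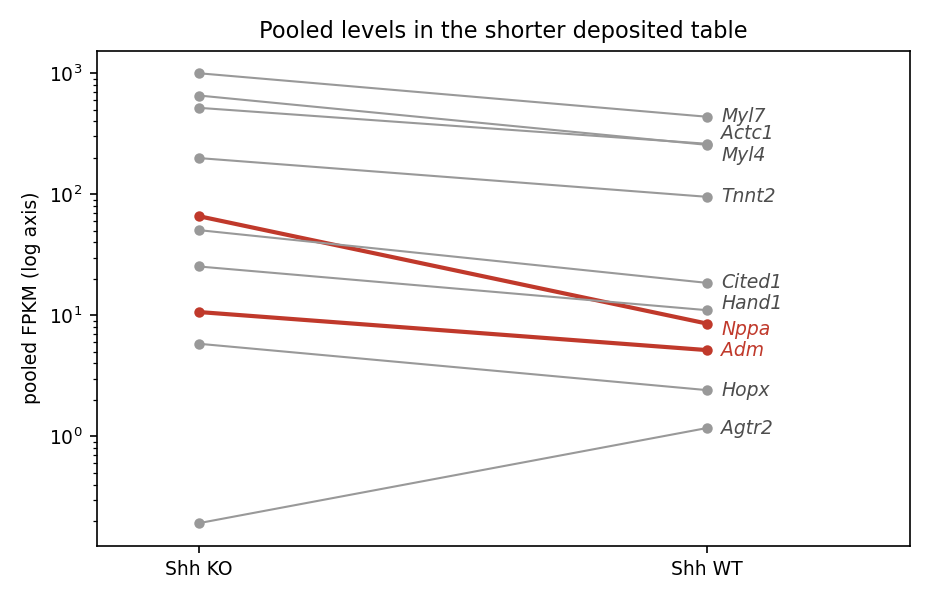
Pooled FPKM (log axis) in Shh KO and Shh WT for Nppa and Adm (red) and for some other called genes of the related lists (grey), from the shorter deposited table. Myl3, Myl2 and Tnni3, which rose more than the sarcomere genes drawn, are among the called genes not drawn. Nppa lies at 65.9 FPKM in Shh KO and 8.55 FPKM in Shh WT and its line crosses those of Cited1 and Hand1, while Agtr2 is lower in Shh KO.

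Transcription factor genes known to act on Nppa gave 2 calls higher and 0 lower among 17 tested, and the median of their log2 fold changes was 0.06 in the authors' deposited table. Hand1, a basic helix-loop-helix factor of the heart, had 25.3 FPKM in Shh KO and 11.0 FPKM in Shh WT in the authors' deposited table. Hopx, a homeodomain protein that lacks DNA binding of its own, had 5.82 FPKM in Shh KO and 2.41 FPKM in Shh WT in the authors' deposited table. The NKX2-5, GATA and T-box genes of the list had no call in the authors' deposited table, where log2 fold changes were −0.06 for Nkx2-5, 0.35 for Gata4, 0.41 for Gata6, −0.44 for Tbx5 and 0.46 for Tbx20. The T-box repressors Tbx2 (−0.08) and Tbx3 (0.03), which limit chamber genes in other heart muscle, had no call in the authors' deposited table either. At an unadjusted Cuffdiff p under 0.05 were 6 of the 17, beside 5.83% of all named tested rows higher and 1.68% lower. These were Hand1, Hopx, Hey2, Gata6 and Tbx20 with positive log2 fold changes and Tbx5 with a negative one. Hey2 stood at 0.86 in the authors' deposited table (Cuffdiff p = 0.00165, q = 0.082) and was called higher with calls at a q under 0.10.

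Cyclic GMP signalling genes, soluble guanylyl cyclases included, gave no call among the rows tested. Of the 16 rows of 15 such genes, 8 were tested and 0 were called by Cuffdiff, with 2 at an unadjusted p under 0.05 and a median of 0.04 (log2 fold changes of the authors' deposited table). These 2 were Pde5a, a phosphodiesterase that breaks down cyclic GMP, at −0.67 (Cuffdiff p = 0.00085, q = 0.0513), and Pde2a at 0.44 (Cuffdiff p = 0.0482, q = 0.736), in the authors' deposited table. With calls at a q under 0.10, Pde5a was lower. Prkg1, the cyclic GMP-dependent kinase gene, stood at 0.03 in its tested row of the authors' deposited table. The soluble guanylyl cyclase genes Gucy1a3 and Gucy1b3 stood at 0.05 and 0.14 in the authors' deposited table. Among genes that process or degrade the peptides, 4 of 6 were tested and 0 were called by Cuffdiff, also at an unadjusted p under 0.05. The lowest was Mme, the neprilysin gene, at −0.47 (p = 0.053) in the authors' deposited table. Ide, the insulin-degrading enzyme gene, stood at −0.14 and Furin, a proprotein convertase gene, at 0.09 in the authors' deposited table.

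The adrenomedullin receptor genes did not reach a call beside Adm. Of 10 tested genes for related peptides, receptors and processing, 0 were called by Cuffdiff and 2 had an unadjusted p under 0.05, with a median of 0.27 (log2 fold changes of the authors' deposited table). Calcrl stood at 0.27 (approximate SE 0.42, Cuffdiff p = 0.2), Ramp2 at 0.28 (p = 0.198) and Ramp3 at −0.58 (p = 0.138) in the authors' deposited table. The 2 with the lower p were Ramp1, an accessory protein gene of the calcitonin gene-related peptide receptor, at 0.92 (p = 0.0485) and Cxcr7, a scavenging receptor gene, at 0.47 (p = 0.021) in the authors' deposited table. Adm2, a related peptide gene, stood at 0.84 (p = 0.214) and Pam, which amidates such peptides, at 0.33 (p = 0.103) in the authors' deposited table.

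Adm is known to respond to low oxygen, so hypoxia response genes were counted beside it. Of 15 tested, 1 was called higher and 0 lower, 5 had an unadjusted p under 0.05, and the median log2 fold change was 0.32 in the authors' deposited table. The called gene was Ndrg1, with 9.35 FPKM in Shh KO and 4.50 FPKM in Shh WT in the authors' deposited table. Slc2a1, a glucose transporter gene, stood at 0.62 (Cuffdiff q = 0.0513) and Egln3, an oxygen-sensing hydroxylase gene, at 0.85 (Cuffdiff p = 0.00225) in the authors' deposited table.

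Other vasoactive peptide systems gave 1 call. Of 8 tested genes for endothelins, angiotensin and their receptors, Agtr2, an angiotensin receptor gene, was lower, with 0.192 FPKM in Shh KO and 1.17 FPKM in Shh WT in the authors' deposited table. Agtr1a (0.04), Edn1 (0.52), Ednra (−0.17) and Ednrb (0.44) had no call in the authors' deposited table.

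Markers of other cells in the dissection were set beside these results. Endothelial markers, which matter for Adm and its receptors, gave 0 calls among 11 by Cuffdiff, with 1 at an unadjusted p under 0.05, log2 fold changes from −0.08 to 0.39 and a median of 0.07 in the authors' deposited table. Tie1 stood at 0.31 and Egfl7, in a row shared with Mir126, at 0.39 in the authors' deposited table. Macrophage markers gave 4 calls higher of 7 tested among 8 (median 1.14), and the pooled FPKM of Tyrobp, Fcer1g, C1qb and C1qc summed to 55.1 in Shh KO and 19.3 in Shh WT in the authors' deposited table. Hepatoblast markers gave 7 of 7 higher (median 1.77), and the pooled FPKM of Afp, Alb, Apoa1, Ttr, Fgb, Hnf4a and Serpina1a summed to 472 in Shh KO and 132 in Shh WT in the authors' deposited table. For epicardial markers, 3 of 7 tested among 8 were higher (median 0.70), with 123 FPKM in Shh KO and 68.3 FPKM in Shh WT summed over Wt1, Upk3b and Krt19 in the authors' deposited table. Pooled FPKM was given for called genes only, so these sums hold only markers called higher and had to rise. Uncalled markers, such as C1qa (1.23) and Tcf21 (−0.02) on the log2 scale, are not in them, whereas the medians cover all tested markers. None of the markers with a pooled FPKM was at 0 in either genotype, which was fixed in advance. All 253 genes with a pooled FPKM have a numeric fold change, which needs a value above 0 in both genotypes. The part of these cells in the values of Nppa and Adm was not tested.

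**Figure D5:**
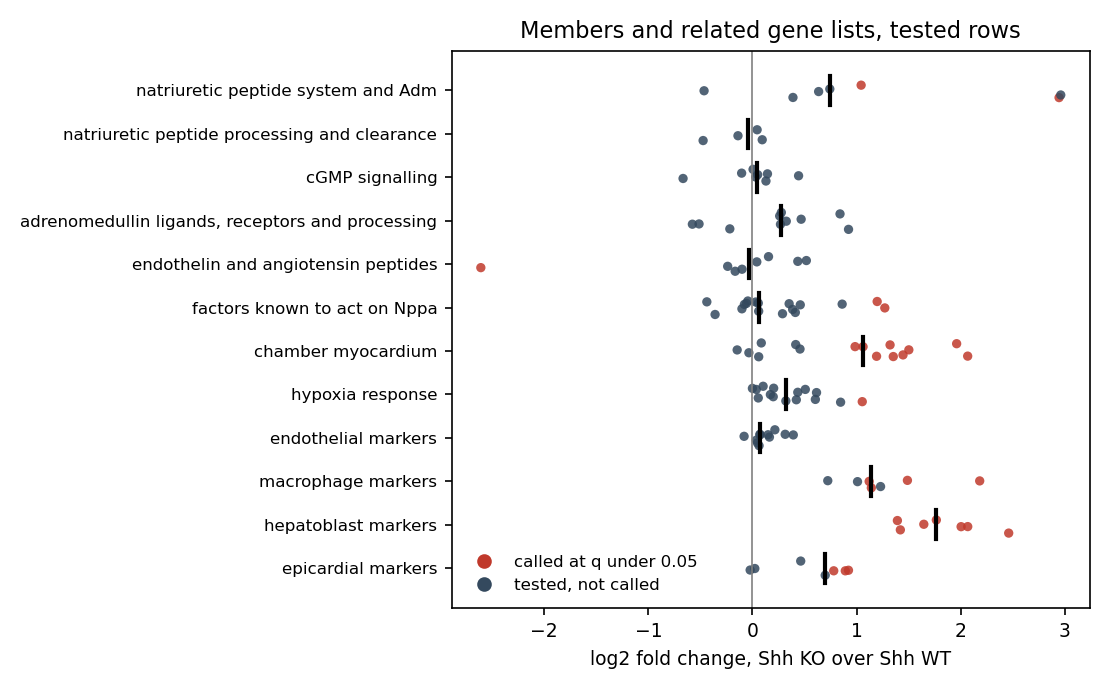
Log2 fold change of Shh KO over Shh WT for the tested rows of the natriuretic peptide system with Adm and of 11 related lists, from which the 8 genes were left out; points are genes, red where called, with vertical spread for display, and black bars are medians. The members' median is 0.74, that of cyclic GMP genes 0.04 and that of chamber myocardium 1.06.

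The called genes with fold changes nearest to that of Nppa were Prdm12 (2.94), Pou4f1 (2.83) and Grm2 (2.79), as log2 values of the authors' deposited table. Their levels were far lower, with 2.06, 1.54 and 1.87 FPKM in Shh KO and 0.268, 0.215 and 0.271 FPKM in Shh WT in the authors' deposited table. Nearest to Adm were Naaa, Vtn and Xirp1, which differed from it by at most 0.00169 log2 units in the authors' deposited table. With 1 comparison, likeness in fold change says nothing of a shared pattern over samples.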

How the data were processed

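Per the submitters' processing notes, the authors used TopHat2 2.0.10 and Cuffdiff 2.1.1 and named the build mm9. Cuffdiff's options and its scaling of libraries are not given in the sources used here. For 27198 rows, the authors deposited log2 fold changes, a test score (the Cuffdiff statistic), p-values and q-values. For 253 called genes they also deposited pooled FPKM per genotype and the ratio (fold) of both. Both are the authors' own comparisons, with no per-library values used, so depth and replicate spread are unknown.

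A p-value under 1 marked 16944 tested rows, and Benjamini-Hochberg adjustment over them returned the deposited q-values within 5.94e-05. Of the rows, 1190 carry a spreadsheet error where the fold change should be. Fold changes were read as Shh KO over Shh WT. They match the log2 fold change deposited beside the pooled FPKM within 1.07e-05 for all 253 genes. There Nppa, with 65.9 FPKM in Shh KO and 8.55 FPKM in Shh WT, has a positive value. The fold changes have the opposite sign to the statistic in all 16918 rows that allow the comparison. Of 21107 rows whose symbol is in RefSeq GRCm38, 98.7% overlap that gene, so positions are given as GRCm38, with 1 added to starts.

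The 8 genes and the 13 related lists were chosen with earlier results of these data known. Named were all 8 genes, every called list gene, the 2 tested genes of each list with the largest change, Calcrl, Ramp2 and Ramp3, the genes beside Nppa and Nppb, and the 3 called genes nearest in fold change to each called member. Other list genes are named as examples chosen after their values were seen. Python 3.11.15, pandas 2.3.3 and scipy 1.17.1 were used, and the adjustments and motif search were tested on simulated data. Some list genes and sequences are not reported here and were left out of the lists and counts.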

Additional observations from a re-analysis of the deposited data

How the results depend on the processing

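Of the 2 members called higher by Cuffdiff, 1 (Nppa) was called at a q under 0.01, and 0 after Benjamini-Yekutieli adjustment over all tested rows, where Nppa has an adjusted p of 0.0571 and the smallest possible p limits every gene. With the deposited statistic read as a standard normal value, an alternative chosen after seeing the data, 1 member, Nppa, was called, at a Benjamini-Hochberg adjusted value of 0.0266. A q under 0.10 and adjustment over named rows alone gave 2. Leaving out overlapping rows also gave 2, which was fixed in advance because no member row overlapped another. The count of members called lower was 0 under all 6 alternatives. The only tested member with a negative fold change, Npr3, had a Cuffdiff q of 0.538, so neither other q threshold could call it. After adding 1 FPKM to each pooled value, Nppa stood at 2.81 and Adm at 0.92 on the log2 scale, and after adding 5 FPKM at 2.39 and 0.62. Subtracting the median of all named tested rows (0.02) could turn no sign among the 7 tested members, since the change nearest to 0 was 0.39 (Npr1). Of 52 list counts under another q threshold, 47 stayed within 1.5 times. The other 5 were 1 of the Nppa factors, 1 macrophage and 1 epicardial marker higher at a q under 0.01, and 1 cyclic GMP gene lower and 2 hypoxia genes higher at a q under 0.10. Most of the 52 had a count of 0 at a q under 0.05, and a count of 0 cannot change at a q under 0.01. The 47 therefore say little about the lists that held calls. No paired analysis was possible because the tables hold no per-library values, and leaving out replicates was not run for the same reason. The depth behind each value is unknown.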

Other observations

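The deposited p-values and the deposited statistic do not carry the same error. Read as a standard normal value, the statistic of Adm gives a p of 0.097 and that of Nppb a p of 0.0192, beside deposited Cuffdiff p-values of 0.0007 for Adm and 0.00255 for Nppb, so the order of these genes turns round. For Nppa the normal reading gives 4.08e-05. Across 12899 named tested rows above the smallest p, the deposited p was the smaller in 99.6%. The approximate standard errors in the text come from the statistic. For Nppa the p-value is the smallest in the table, so the error it implies, 0.73, is only an upper limit. It cannot show whether the p-value carries the error of 0.72 that the statistic of Nppa gives. For Adm the error implied by the p-value is 0.31 on the log2 scale, in place of 0.63. With the statistic read this way and adjusted over all named tested rows, 5 genes were called higher and 15 lower, 6 of them also called by Cuffdiff.

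Several untested rows of related genes carry large fold changes in the authors' deposited table, with log2 values of 3.15 for the guanylyl cyclase gene Gucy2c, 3.52 for Edn2, 2.19 for Agt and 1.26 for Pln. They have no p-value below 1, and no direction is drawn from them.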
